A study of Mus musculus with 21 samples.

Results

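The genes described here encode the receptor phosphatase CD45 (Ptprc), 4 Src-family kinases (Src, Lyn, Fgr and Fyn), the kinase that restrains them (Csk) and 3 cytoplasmic tyrosine phosphatases (Ptpn6, Ptpn1 and Ptpn22). They were chosen by name and matched to the deposited gene table by Ensembl identifier, which gave 9 of its 23250 genes. All 9 passed the filter on low counts, so none was left out of a test. The cells were macrophages derived from C57BL/6J bone marrow that, according to the series, lack the mannose receptor, and their RNA was sequenced in bulk. The marrow cells had been grown for 7 days in GM-CSF, which was supplied as a small share of supernatant from a producing cell line. One group was collected untreated (0 h). The other 6 groups received either FcMR, the extracellular region of the mannose receptor joined to a human IgG1 Fc region, or an isotype control, for 4, 12 or 24 h. Each of the 7 groups holds 3 libraries, 21 in all. The labels do not say whether libraries of a group came from separate mice or cultures, so p-values measure only the spread between these samples.

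Src-family kinases are membrane-anchored tyrosine kinases that phosphorylate the signalling motifs of immune receptors, after which Syk is recruited. Csk phosphorylates their inhibitory C-terminal tyrosine and holds them in a closed form, and CD45 removes that phosphate and can also act on the activating tyrosine of the kinase domain. SHP-1 (Ptpn6), PTP1B (Ptpn1) and PEP (Ptpn22) dephosphorylate kinases, receptors and adaptors downstream. The study asked how soluble mannose receptor acts on macrophages. RNA levels say nothing about the phosphorylation or activity of these proteins.

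The upstream sequences of 4 of the genes are shown. Those of Src, Fyn and Ptpn22 belong to the genes with the largest differences between FcMR and isotype at 4 h, and that of Ptprc to CD45. They were chosen after the values had been seen. They come from RefSeq (build GRCm38.p6), run 5' to 3' on the strand of the gene, and leave out bases annotated as exon. A window was found for 8 of the 9 genes, and Lyn had none. The Ptprc sequence lies at chr1:138175307-138175555 (minus strand), that of Src at chr2:157424043-157424115 (plus), that of Fyn at chr10:39369549-39369763 (plus) and that of Ptpn22 at chr3:103859545-103859794 (plus). Capitals mark matches on either strand to one of 5 searched motifs: an NF-kB consensus, the GAS element TTCNNNGAA, an ISRE core (a pair of GAAA with any 2 bases between), the PU.1 core GAGGAA and the AP-1 site TGANTCA.
Ptprc: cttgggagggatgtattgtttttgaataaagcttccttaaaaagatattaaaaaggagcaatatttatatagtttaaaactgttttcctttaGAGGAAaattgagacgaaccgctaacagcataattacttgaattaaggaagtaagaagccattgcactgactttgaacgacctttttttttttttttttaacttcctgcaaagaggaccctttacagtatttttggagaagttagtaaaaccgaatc
Src: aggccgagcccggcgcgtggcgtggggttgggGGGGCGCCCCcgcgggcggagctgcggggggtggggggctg
Fyn: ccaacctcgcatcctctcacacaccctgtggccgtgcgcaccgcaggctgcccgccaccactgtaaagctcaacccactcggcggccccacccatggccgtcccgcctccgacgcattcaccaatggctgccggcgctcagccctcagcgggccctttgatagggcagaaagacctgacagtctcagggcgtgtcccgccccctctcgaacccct
Ptpn22: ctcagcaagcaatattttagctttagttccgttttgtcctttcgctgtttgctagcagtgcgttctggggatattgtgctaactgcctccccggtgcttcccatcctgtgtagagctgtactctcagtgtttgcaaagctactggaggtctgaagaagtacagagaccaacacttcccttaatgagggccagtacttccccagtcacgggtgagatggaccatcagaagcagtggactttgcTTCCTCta
Over the full 250 bases upstream, GC content was 31.6% for Ptprc, 82.8% for Src, 67.2% for Fyn and 49.2% for Ptpn22. Src was the 1 gene with a match to the NF-kB consensus, 218 bases before the start, and 7.25% of 32851 RefSeq windows of the same length hold one. The PU.1 core, found in 23.3% of windows, matched in Ptprc, Src, Ptpn22 and Csk. That share is per window, and Ptprc, Ptpn22 and Csk each had more than 1 window searched. The Src match lay 108 bases before the start, beyond its printed bases. A GAS element (7.02% of windows) lay in a second Ptpn22 window, 232 bases before its start. No ISRE core (2.98% of windows) or AP-1 site (6.75%) was present in the windows of these genes. These are letter matches and say nothing about binding.

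Library totals ran from 5532225 to 66729533 estimated counts, and levels are given in CPM, which scales each library's counts to the same total after TMM factors are applied. The 9 genes had between 62 (Src) and 41605 (Ptprc) counts in a library. The levels of GC-rich genes relative to GC-poor ones also varied between libraries, which bears on genes as unlike as Src (transcript GC content 59.7%) and Ptprc (40.0%). The GC tilt of a library is the mean log2 level of its GC-richest 10% of genes minus that of its GC-poorest 10%, relative to all libraries. In isotype 4 h its lowest and highest values were -1.64 and 0.66, in FcMR 12 h -0.73 and 0.83 and in FcMR 24 h -1.32 and 0.43, and it varied less in FcMR 4 h (-0.55 to -0.19), isotype 12 h (0.60 to 0.84) and isotype 24 h (-0.10 to -0.05). The isotype 4 h library that stood apart (replicate 3) and the FcMR 12 h library that did (replicate 1) are also those whose sample numbers break the order of the titles. Isotype 4 h replicate 3 had a tilt of 0.66, near the 0.74 and 0.83 of FcMR 12 h replicates 2 and 3. FcMR 12 h replicate 1 had -0.73, near the -0.85 of isotype 4 h replicate 1, with -1.64 in replicate 2. The labels were followed, and whether these 2 libraries were exchanged was not tested. Values with a GC correction (a smooth curve of level against GC content removed from each library) are therefore set beside those without it. Levels of cell type markers, here and below, are CPM without TMM factors. All 7 macrophage markers were detected in every library (19000 to 37530 CPM summed), and Cd3e of T cells had at most 4 counts. The 6 dendritic cell markers summed to 1392 to 1787 CPM. Of them 1, 2 and 3 were called between FcMR and isotype at 4, 12 and 24 h (1, 1 and 2 higher). The shares of all genes called there were 17.7%, 16.1% and 20.9%. Without TMM factors, the macrophage marker sum was lower with FcMR at each time. At 4 h it was 23430 to 24190 CPM against 25580 to 30990 under isotype. It was 19000 to 23060 against 23260 to 25790 at 12 h and 26040 to 28310 against 33220 to 37530 at 24 h. TMM factors, which divide such levels, were 0.832 to 0.852 in FcMR 4 h and 0.942 to 1.004 in isotype 4 h. The separation at 4 h therefore depends on the scaling, and that at 12 and 24 h was not examined with these factors. Most of each sum was Lyz2, which reached 32570 CPM in a library, while no other of the 7 markers passed 1924 CPM (Itgam). Of the 7 macrophage markers 3, 2 and 5 were called between FcMR and isotype (2, 1 and 1 of them higher), beside the same shares of all genes. Between isotype and untreated cells 4, 5 and 6 were called (3, 5 and 6 higher), where 35.6%, 41.6% and 42.2% of all genes were. The part of these markers in the results of the 9 genes was not tested.

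**Figure D1:**
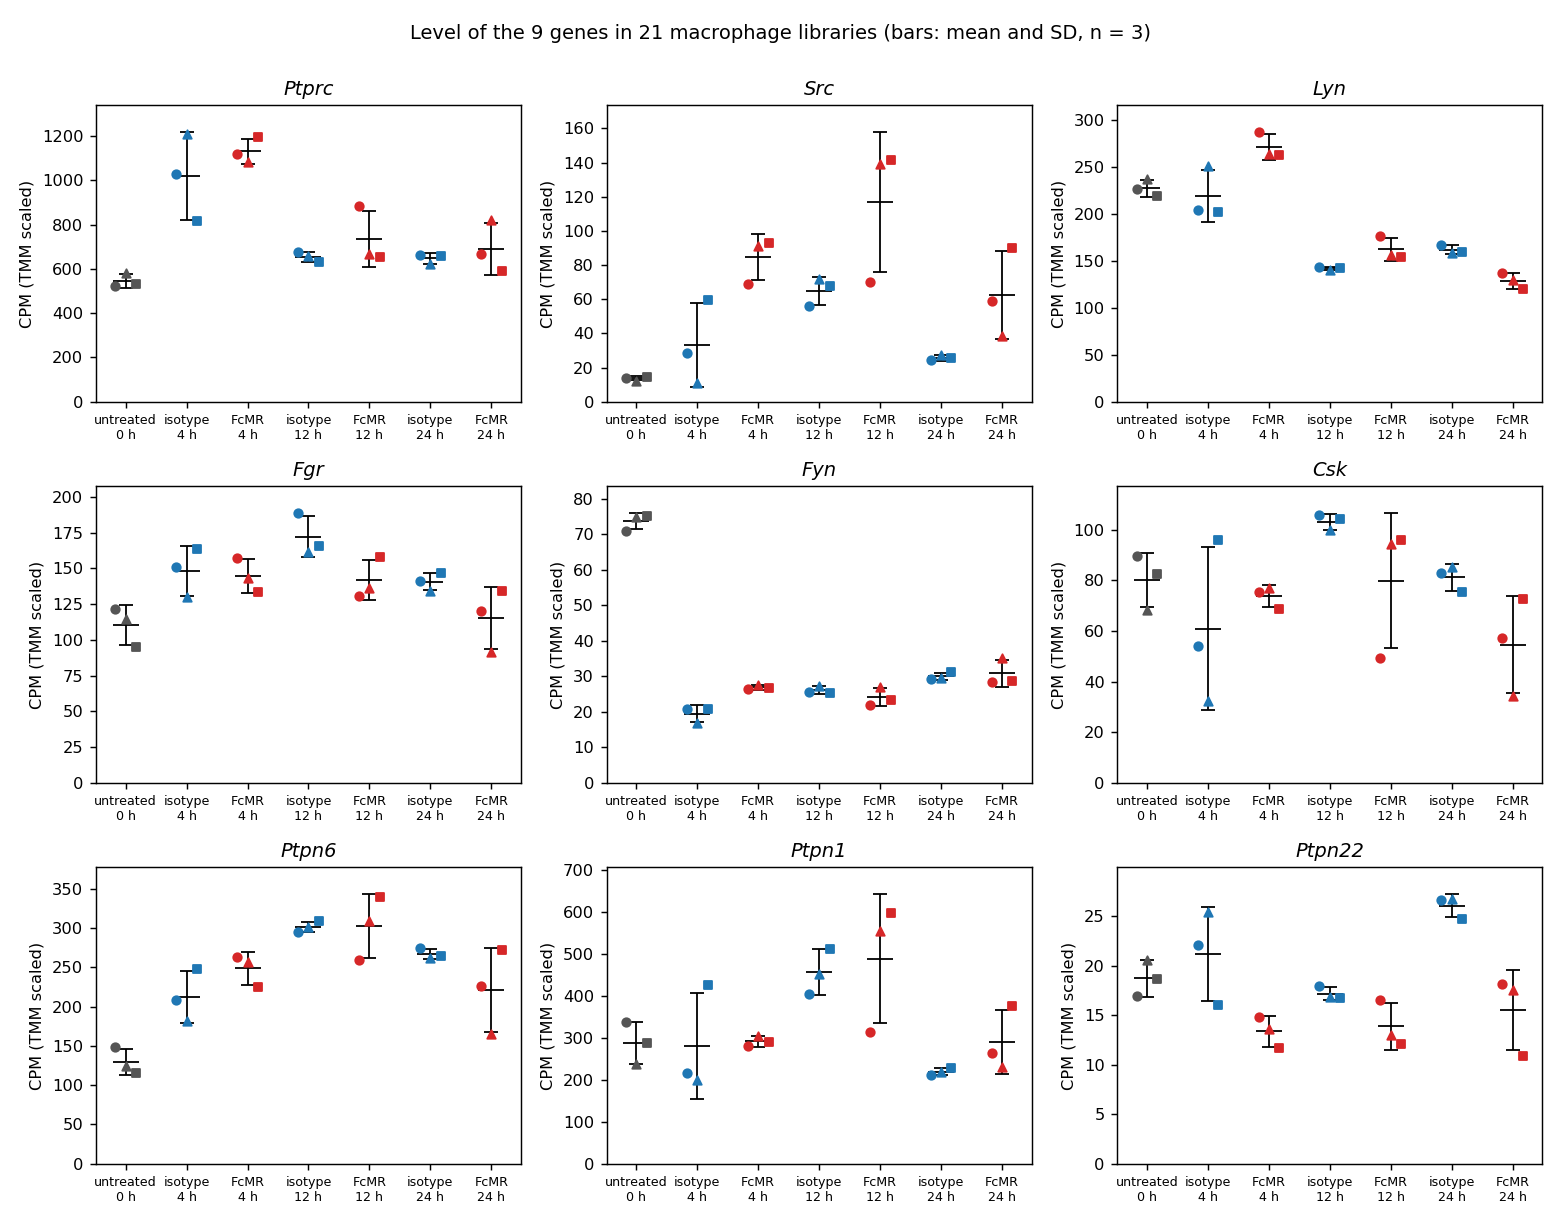
Level of each of the 9 genes in every library. The y axis is CPM with TMM scaling, the x axis the 7 groups in order of time. Points are libraries (circle, triangle and square for replicates 1, 2 and 3; grey untreated, blue isotype, red FcMR), and bars show mean and SD (n = 3). The group mean of Src was lowest in untreated cells, that of Fyn highest there, and the spread of Src, Csk and Ptpn1 was wide in isotype 4 h and FcMR 12 h.

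Per kilobase of coding transcript, untreated cells held 176 ± 9.97 CPM of Ptprc (SD, n = 3, as for the values that follow), 109 ± 14 of Ptpn6, 68.2 ± 11.7 of Ptpn1, 66.4 ± 2.61 of Lyn, 54.8 ± 7.37 of Csk, 38.3 ± 4.82 of Fgr, 34.9 ± 1.07 of Fyn, 6.84 ± 0.68 of Ptpn22 and 3.98 ± 0.33 of Src. Neighbours Ptpn1 and Lyn, and Fgr and Fyn, differed by less than the larger of their SDs. With the longest annotated transcript as the length, Ptpn6 (56.2 CPM per kilobase) came after Ptprc, Ptpn1 and Lyn. Src, the gene with the lowest level in resting cells, was also the one whose level moved most over the 7 groups, with group means spanning 3.01 log2 units. Fgr spanned the least, 0.65.

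FcMR against isotype was tested at each time with edgeR's quasi-likelihood test, fitted on 13468 genes and all 21 libraries, and a gene is called where the Benjamini-Hochberg adjusted p over all those genes is under 0.05. At 4 h, 4 of the 9 genes were called, Src, Lyn and Fyn higher and Ptpn22 lower, where 17.7% of all genes tested were called (8.62% higher and 9.13% lower). At 12 h none was called, where 16.1% of all genes were (8.61% higher and 7.49% lower). There, 3 of the 9 (Src, Lyn and Fgr) had an unadjusted p under 0.05, and DESeq2 called 0. At 24 h, Src was called higher and Lyn and Ptpn22 lower, 3 of 9, where the share of all genes was 20.9% (11.4% higher and 9.44% lower). The libraries of FcMR and isotype did not overlap for 4, 4 and 6 of the 9 genes at 4, 12 and 24 h, and for 29.7%, 35.4% and 34.4% of all genes. The split of all calls at 4 h depended on the scaling, with 48.6% of them higher under TMM and 62.7% under RLE factors. With GC correction the counts were 6, 2 and 5 of 9, where 28.4%, 26.1% and 31.1% of all genes were called. The median log2 difference of the 9 genes was 0.23, 0.01 and -0.28 at the 3 times, beside -0.07, -0.02 and 0.01 over all genes. At 4 h the count fell to 1 without isotype replicate 1, and to 2 without isotype replicate 2, FcMR replicate 2 or FcMR replicate 3. At 24 h it fell to 1 without isotype replicate 1. A fit of only the 6 libraries compared called 0 of the 9 genes at 4 h.

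CD45 RNA was not called between FcMR and isotype at any time. Ptprc (ENSMUSG00000026395.16, chromosome 1, 138062861 to 138175708) stood at 521, 580 and 534 CPM in untreated cells. At 4 h the isotype libraries had 1030, 1211 and 817 CPM and the FcMR libraries 1119, 1081 and 1194. All 6 libraries of 4 h were above every untreated library, and the 2 treatments overlapped. The FcMR difference was 0.15 (SE 0.14) at 4 h, 0.17 (SE 0.14) at 12 h and 0.10 (SE 0.14) at 24 h on the log2 scale, with edgeR adjusted p of 0.522, 0.515 and 0.702. The 95% interval at 4 h, from -0.14 to 0.44, leaves room for a change in either direction. After GC correction the 4 h libraries had 841, 850 and 834 CPM under isotype and 1029, 1092 and 1087 under FcMR, which no longer overlapped, and the difference of 0.35 was called. Isotype libraries of 4 h had GC tilts from -1.64 to 0.66 against -0.55 to -0.19 in FcMR, and the part of the tilt in this gene's difference was not tested.

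Src, which encodes the ubiquitous c-Src kinase, showed the largest FcMR difference of the 9 genes at all 3 times. Src (ENSMUSG00000027646.15, chromosome 2, 157418444 to 157471862) was at 14.1, 12.4 and 14.6 CPM in untreated cells. At 4 h it was at 28.7, 11.2 and 59.4 CPM under isotype and at 68.9, 91.4 and 93.2 under FcMR. Every FcMR library was above every isotype library, although isotype replicate 3 came close to the lowest FcMR library and isotype replicate 2 lay below the untreated cells. The rise was 2.51-fold (log2 1.33, SE 0.40; edgeR adjusted p = 0.0294). The call was lost without isotype replicate 1 (log2 1.27) or replicate 2 (0.97), or FcMR replicate 2 (1.27) or replicate 3 (1.33). Without isotype replicate 3 the difference was 2.07. With GC correction the 4 h difference was 1.45 and called, with 25.1 to 41.7 CPM under isotype and 81.9 to 117 under FcMR.

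At 12 h Src was at 55.8, 71.6 and 67.6 CPM under isotype and at 69.9, 139 and 142 under FcMR. The groups overlapped because FcMR replicate 1 fell between the isotype libraries. The difference, 0.85 (SE 0.39), was not called (edgeR adjusted p = 0.169). GC correction moved that library to 99.0 CPM, beside 87.8 and 88.2 in the other FcMR libraries and 38.4 to 45.1 under isotype, and the difference of 1.16 was then called. Leaving out both libraries that break the title order also gave a call, with a difference of 1.11. At 24 h Src was at 24.2, 27.2 and 25.4 CPM under isotype and at 59.0, 38.6 and 89.7 under FcMR. The isotype libraries lay close together and below all FcMR libraries, which were widely spread. The rise was 2.42-fold (log2 1.28, SE 0.41; edgeR adjusted p = 0.0319), and 1.52 on the log2 scale with GC correction. This call was lost without any 1 isotype library (1.25, 1.34 and 1.28 without replicates 1, 2 and 3), or without FcMR replicate 1 (1.32) or replicate 3 (0.93).

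**Figure D2:**
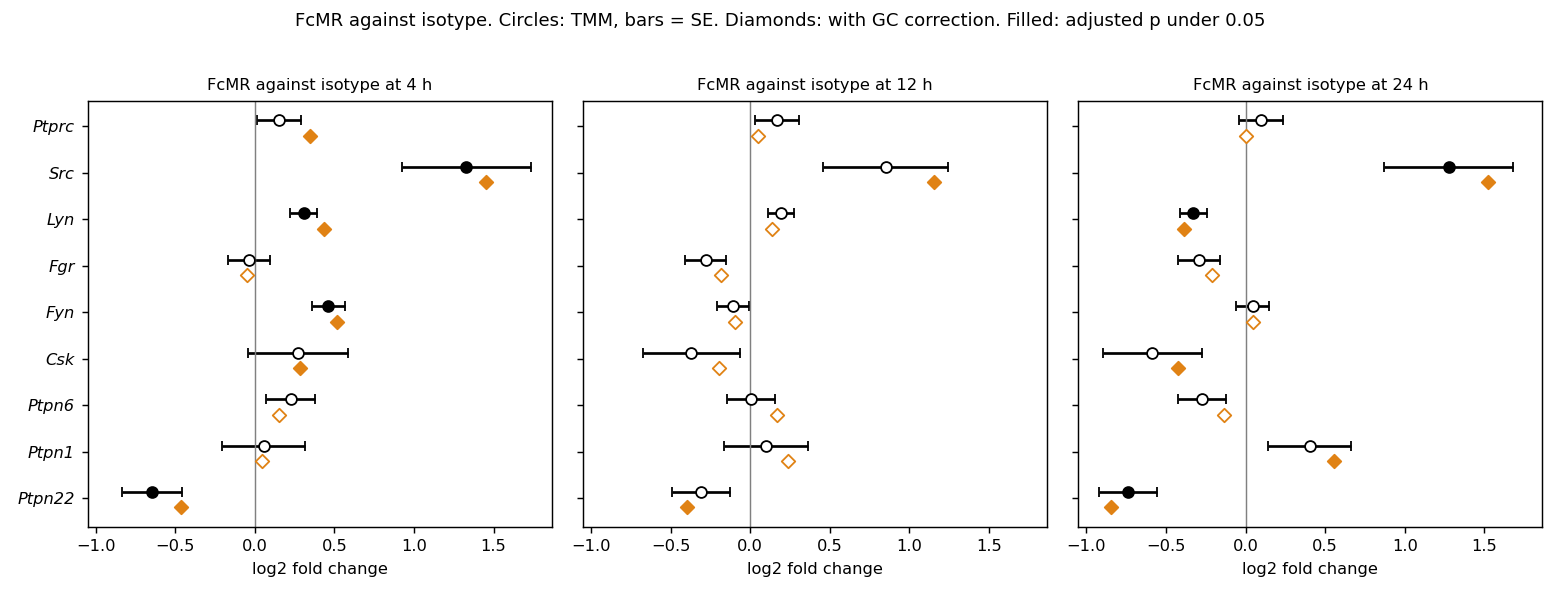
Log2 fold change of FcMR against isotype for the 9 genes at 4, 12 and 24 h, positive where FcMR was higher. Circles are the TMM fit with SE bars, diamonds the fit with GC correction, and filled symbols have an adjusted p under 0.05. Src lay furthest to the right at all 3 times (1.33, 0.85 and 1.28), Lyn moved from 0.31 to -0.33, and Ptpn22 lay to the left throughout.

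Lyn, a kinase with both activating and inhibitory roles in myeloid cells, was higher with FcMR at 4 h and lower at 24 h. Lyn (ENSMUSG00000042228.14, chromosome 4, 3678115 to 3813122) was at 205, 252 and 202 CPM under isotype and 287, 264 and 263 under FcMR at 4 h. At 24 h the isotype libraries had 168, 158 and 160 CPM and the FcMR libraries 137, 129 and 120. Neither pair of groups overlapped, in opposite directions. The rise at 4 h was 1.24-fold (log2 0.31, SE 0.08; edgeR adjusted p = 0.0163) and the fall at 24 h 1.26-fold (log2 -0.33, SE 0.08; edgeR adjusted p = 0.00889). At 12 h the values were 141 to 143 CPM under isotype and 154 to 176 under FcMR, with a difference of 0.19 that was not called (edgeR adjusted p = 0.145). A joint test of whether the FcMR difference changed over the 3 times called Lyn (edgeR adjusted p = 0.00348), with the difference 0.64 log2 units lower at 24 h than at 4 h. The 4 h call was lost without isotype replicate 1 (0.27) or 3 (0.25) or FcMR replicate 1 (0.27), and without both libraries out of title order (0.25). The 24 h call was lost without isotype replicate 1 (-0.29) or FcMR replicate 3 (-0.28). The joint call held in all 18 fits that left out 1 library of these groups. With GC correction the Lyn differences were 0.43 at 4 h and -0.39 at 24 h, both called, and 0.14 at 12 h, not called.

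Fyn, which in leukocytes acts on immunoreceptor and adaptor signalling, was called higher with FcMR at 4 h. Fyn (ENSMUSG00000019843.14, chromosome 10, 39368855 to 39565381) was at 20.8, 16.8 and 20.7 CPM under isotype and at 26.4, 27.5 and 26.6 under FcMR at 4 h. The FcMR libraries were tightly grouped and all above the isotype libraries, a rise of 1.38-fold (log2 0.46, SE 0.11; edgeR adjusted p = 0.00474) that was called in each fit without 1 of the 6 libraries, and not with the authors' factors (0.52). With GC correction the 4 h difference was also 0.52, and was called. At 12 and 24 h the groups overlapped, with differences of -0.11 (SE 0.10) and 0.04 (SE 0.10). The joint test over the times called Fyn as well (edgeR adjusted p = 0.0345), where 11% of all genes were called, 6.24% with a difference higher at 24 h than at 4 h and 4.78% with a lower one. That call was lost without isotype 4 h replicate 2 (-0.35), FcMR 4 h replicate 1 (-0.42) or FcMR 4 h replicate 2 (-0.39), given as the difference at 24 h minus that at 4 h. The joint call of Fyn was also lost with the authors' factors (-0.66) and with no filter on low counts (-0.52). Fyn and Lyn were the 2 genes of the 9 called by this test, and with GC correction 5 were called (Ptprc, Lyn, Fyn, Csk and Ptpn1), where the share of all genes was 23.1%.

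Fgr, a kinase of neutrophils and macrophages, was not called at any time. Fgr (ENSMUSG00000028874.14, chromosome 4, 132974095 to 133001910) was at 151, 130 and 164 CPM under isotype and 157, 143 and 134 under FcMR at 4 h. At 24 h it was at 141, 135 and 147 under isotype and 120, 91.3 and 134 under FcMR. The groups overlapped at 4 h and did not at 12 and 24 h, when FcMR was the lower. The log2 differences were -0.03, -0.28 and -0.29 (SE 0.13 each), with edgeR adjusted p of 0.903, 0.182 and 0.141, and the 24 h difference was called without FcMR replicate 3 (-0.41).

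The lymphoid Src-family kinases Lck and Blk had means under 3 CPM in all treated groups and were not called in any FcMR comparison.

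Csk (ENSMUSG00000032312.7, chromosome 9, 57626646 to 57653631) was not called in any FcMR comparison of all libraries with TMM factors. It was at 54.1, 32.5 and 95.9 CPM under isotype and at 75.4, 77.2 and 68.8 under FcMR at 4 h. At 24 h the isotype libraries had 83.1, 85.4 and 75.3 CPM and the FcMR libraries 57.1, 34.2 and 72.5. The isotype libraries of 4 h enclosed the FcMR ones, and at 24 h all FcMR libraries lay below the isotype ones. The log2 differences were 0.27 (SE 0.31), -0.37 (SE 0.31) and -0.58 (SE 0.31), with edgeR adjusted p of 0.624, 0.523 and 0.218. With GC correction they were 0.28 at 4 h and -0.43 at 24 h, both called, and -0.20 at 12 h, not called. Without both libraries out of title order Csk was called higher at 4 h (0.77) and lower at 24 h (-0.58), and the joint test called the change over time (-1.35, the difference at 24 h minus that at 4 h). Leaving out isotype 4 h replicate 3 alone gave 0.77 at 4 h, not called, and a change over time of -1.35 that was called, and the authors' factors also called the change (-0.84). FcMR 24 h replicate 2, the lowest of its group for Csk and for Src, had a GC tilt of -1.32, and the part of the tilt in these values was not tested.

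Src and Csk have similar transcript GC content, 59.7% and 56.7%. Their libraries had the same order within isotype 4 h, FcMR 12 h and FcMR 24 h, and different orders within the other groups. Their ratio within a library was computed after the values had been seen. Src CPM divided by Csk CPM was 0.157 to 0.182 in untreated cells. At 4 h it was 0.344 to 0.620 under isotype and 0.914 to 1.36 under FcMR. At 12 h the isotype libraries had 0.527 to 0.718 and the FcMR libraries 1.42 to 1.48. At 24 h the isotype libraries had 0.292 to 0.337 and the FcMR libraries 1.03 to 1.24. The ranges of FcMR and isotype did not overlap at any time. FcMR 12 h replicate 1 and isotype 4 h replicate 3, the libraries out of title order, had ratios of 1.42 and 0.620, at the lower end of the FcMR 12 h libraries and the upper end of the isotype 4 h ones. The ratio is of RNA levels with no correction for length or GC content and is a description without a test. The part of the GC tilt in it was not tested.

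**Figure D3:**
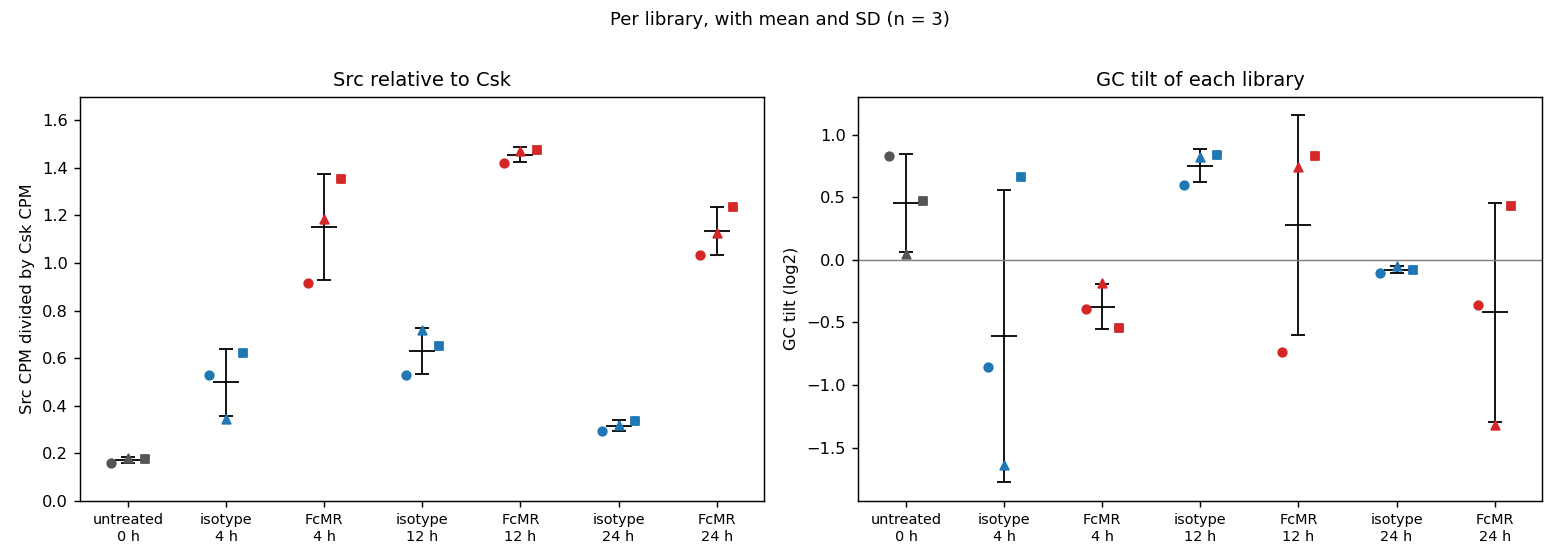
Left, Src CPM divided by Csk CPM in every library, and right, the GC tilt of every library in log2 units, both by group with mean and SD (n = 3). Points are libraries, with circle, triangle and square for replicates 1, 2 and 3. The ratio lay at 0.914 or more in all FcMR libraries and at 0.718 or less in all others, while the tilt was spread widely in isotype 4 h, FcMR 12 h and FcMR 24 h.

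Of the phosphatases, Ptpn22 was lower with FcMR. It encodes PEP, which binds Csk and dephosphorylates the activating tyrosine of Src-family kinases. Ptpn22 (ENSMUSG00000027843.13, chromosome 3, 103859795 to 103912247) was at 22.1, 25.4 and 16.1 CPM under isotype and at 14.8, 13.6 and 11.7 under FcMR at 4 h. At 12 h it was at 18, 16.9 and 16.8 and at 16.6, 13 and 12.1, and at 24 h at 26.7, 26.8 and 24.7 and at 18.2, 17.6 and 10.9. Every FcMR library was below every isotype library of its time. The fall was 1.56-fold at 4 h (log2 -0.65, SE 0.19; edgeR adjusted p = 0.0218) and 1.67-fold at 24 h (log2 -0.74, SE 0.18; edgeR adjusted p = 0.00661). The 12 h difference of -0.31 was not called (edgeR adjusted p = 0.310), and was -0.40 and called with GC correction. The GC-corrected differences at 4 and 24 h were -0.46 and -0.85, both called. At 24 h the call held without any 1 library, from -0.54 to -0.85. At 4 h it was lost without isotype replicate 1 (-0.60) or 2 (-0.46) or FcMR replicate 2 (-0.65) or 3 (-0.52), and also without the filter on low counts (-0.52) and with the authors' factors (-0.50).

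Ptpn6 and Ptpn1 were not called in any FcMR comparison of all libraries with TMM factors. Ptpn6 (ENSMUSG00000004266.15, chromosome 6, 124720707 to 124738714), which encodes SHP-1, the phosphatase recruited by inhibitory receptors, was at 208, 182 and 248 CPM under isotype and 263, 258 and 225 under FcMR at 4 h. The groups overlapped at all 3 times, with differences of 0.22, 0.01 and -0.27 (SE 0.15 each). At 24 h the difference was called without FcMR replicate 3, at -0.44. Ptpn1 (ENSMUSG00000027540.13, chromosome 2, 167932057 to 167979385), which encodes PTP1B, was at 212, 218 and 228 CPM under isotype and at 264, 231 and 376 under FcMR at 24 h. The FcMR libraries were all the higher, by 0.40 (SE 0.26; edgeR adjusted p = 0.335), with FcMR replicate 3 far above the others. GC correction gave 210 to 225 and 291 to 340 CPM and a difference of 0.55 that was called. The authors' factors gave 0.45 at 12 h and 0.64 at 24 h, both called. At 4 h the Ptpn1 difference was 0.06 (SE 0.26; edgeR adjusted p = 0.928), and 0.49 and called without both libraries out of title order.

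Genes that work beside these 9 were read from the same fit. Of 13 other tyrosine phosphatases, 4, 5 and 5 were called at 4, 12 and 24 h (3, 1 and 1 of them higher), where 17.7%, 16.1% and 20.9% of all genes were, and the list's median log2 differences were 0.04, 0.07 and 0.01, beside -0.07, -0.02 and 0.01 over all genes. Ptpra, a receptor phosphatase that activates Src kinases, fell at 12 h (-0.31) and 24 h (-0.79). Ptprj, which encodes CD148, rose at 4 h (0.49) and 12 h (0.26), Ptpn7 fell at all 3 times (-0.63, -0.43 and -0.47), and Ptprs fell at 12 h (-1.78) and 24 h (-1.12). Of 9 partners and brakes of Csk and CD45, 8 were tested and 1, 2 and 3 called (0, 0 and 1 higher), beside the same shares of all genes and with medians of -0.33, -0.27 and -0.22. The Csk anchor Pag1 fell at 4 h (-0.32) and rose at 24 h (0.26), and the adaptor Dok2 fell at 12 h (-1.21) and 24 h (-1.16). Sh2b3, an inhibitory adaptor, fell at 12 h (-0.38) and 24 h (-0.57) but had values of 0.05 and -0.16, not called, with GC correction.

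Of 13 genes of the Syk pathway, 5, 8 and 7 were called at 4, 12 and 24 h (3, 5 and 4 of them higher), where 17.7%, 16.1% and 20.9% of all genes were, with medians of 0.20, 0.03 and -0.06. Syk itself rose by 0.52, 0.54 and 0.67, and the adaptor Lcp2, which encodes SLP-76, by 0.74, 0.89 and 0.31. The adaptor Lat2 fell by 0.59, 1 and 1.67, and the kinase Tec by 0.53, 0.84 and 1.01, so that members of 1 pathway were called in opposite directions. Among 16 inhibitory or related receptors of leukocytes, not all of which carry a motif that recruits SHP-1, 8, 10 and 11 were called (4, 5 and 3 higher), beside the same shares of all genes and with medians of -0.01, -0.08 and -0.48. Siglece rose by 0.75, 1.22 and 1.61, Pilra by 0.67, 0.80 and 0.77, and the Fc receptor Fcgr2b by 0.36, 0.91 and 0.88, while Cd300a fell by 0.99, 1.29 and 1.48. All these log2 differences were called by edgeR at the time given.

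Isotype against untreated was tested to describe what 4, 12 or 24 h with the control protein did to the same genes. The 3 comparisons share their untreated libraries, and time in culture and the protein cannot be told apart because untreated cells were collected at 0 h only. At each time 5 of the 9 genes were called, where 35.6%, 41.6% and 42.2% of all genes tested were, at 4, 12 and 24 h. The shares of all genes called higher were 20.4%, 22% and 21.3%, and those called lower 15.2%, 19.6% and 20.9%. The libraries of the compared groups did not overlap for 4, 8 and 8 of the 9 genes, and for 42.4%, 61.8% and 62.7% of all genes. The genes called at 4 h were Ptprc, Src, Fgr and Ptpn6 higher and Fyn lower, of which Src overlapped between the groups. Src, Fgr and Ptpn6 were higher and Lyn and Fyn lower at 12 h, and Fgr, Ptpn6 and Ptpn22 higher and Lyn and Fyn lower at 24 h. With GC correction 7, 7 and 8 were called, where 44.2%, 53.6% and 54.8% of all genes were. The count fell to 3 at 4 h without untreated replicate 3, and to 3 at 24 h without untreated replicate 3 or isotype replicate 1 or 3.

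Fyn gave the largest fall. It was at 70.9, 74.8 and 75.0 CPM in untreated cells, at 16.8 to 20.8 in isotype 4 h, at 25.4 to 27.3 in isotype 12 h and at 29.2 to 31.2 in isotype 24 h. The fall was 3.77-fold at 4 h (log2 -1.91, SE 0.11; edgeR adjusted p = 1.47e-10), 2.83-fold at 12 h (-1.50) and 2.45-fold at 24 h (-1.30), and GC correction gave -1.94, -1.54 and -1.33. FcMR libraries had 22 to 35.2 CPM over the 3 times, so the fall from untreated cells was present with both proteins. Markers of granulocytes and of mast cells or basophils fell over the same time. Without TMM factors, the 8 granulocyte markers summed to 1569 to 1766 CPM in untreated cells and to 192 to 233 in isotype 24 h. The 4 mast cell or basophil markers summed to 29.4 to 32.2 and 6.55 to 7.43 CPM. Of the granulocyte markers, Elane was at 0 in 5 and Mpo at 0 in 3 of the 21 libraries. At 4 h, where Fyn was lowest, those sums were 952 to 1357 and 19.2 to 33.4 CPM. The part of such cells in the Fyn values was not tested, and in bulk RNA fewer cells of a type and less RNA per cell cannot be told apart. T cell markers, another source of Fyn, summed without TMM factors to 2.15 to 2.94 CPM over 6 genes in untreated cells. Cd3e was at 0 in 12 of 21 libraries. The B cell kinase Blk was at 7.67 ± 0.89 CPM in untreated cells (SD, n = 3) and was called lower at all 3 times, with means of 1.32, 0.452 and 0.154 CPM. The last is under the level that 3 counts give in those libraries (0.314 to 0.405 CPM), so no fold is given.

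Ptpn6 rose at all 3 times. It was at 148, 125 and 116 CPM in untreated cells and at 182 to 248, 295 to 309 and 263 to 275 CPM in isotype 4, 12 and 24 h, with no overlap. The rises were 1.64-fold (log2 0.72, SE 0.15; edgeR adjusted p = 0.00132), 2.33-fold (1.22) and 2.06-fold (1.05), and none of these calls was lost on leaving out a library. An antisense gene, Gm20531, overlaps Ptpn6, and annotated antisense genes or pseudogenes on the opposite strand also overlap Lyn, Fyn and Ptpn22. These are overlaps of whole gene spans, and whether exons overlap was not checked. The stated library kit does not mark strand, so strand cannot separate reads where exons overlap.

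Ptprc rose 1.87-fold at 4 h (log2 0.90, SE 0.14; edgeR adjusted p = 5.79e-05), and by 0.60 with GC correction. At 12 and 24 h it was at 630 to 676 and 620 to 661 CPM, above the 521 to 580 of untreated cells, with differences of 0.26 and 0.25 that were not called (edgeR adjusted p = 0.140 and 0.162) and were called with GC correction (0.38 and 0.24). Src rose 4.74-fold at 12 h (log2 2.25, SE 0.42, edgeR adjusted p = 3.01e-04), a call kept without any 1 library. With GC correction the 12 h difference was 1.92, also called. The Src rise at 4 h was 2.46-fold (log2 1.30, edgeR adjusted p = 0.0220). Under the TMM fit this call rested on isotype replicate 3: without it the difference was 0.57 and not called. The call was also lost without any 1 untreated library (1.23 to 1.35). With GC correction the 4 h difference was 1.75 and called. The isotype 4 h libraries then had 41.7, 25.1 and 38.6 CPM of Src, against 8.87 to 12.4 in untreated cells. At 24 h the Src difference of 0.90 was not called (edgeR adjusted p = 0.0916), though DESeq2 called it (0.94) and GC correction gave 1.34, also called. Isotype 12 h and untreated libraries had GC tilts of 0.60 to 0.84 and 0.05 to 0.83, and the part of these in the Src values was not tested.

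Lyn was not called at 4 h (-0.05, SE 0.08; edgeR adjusted p = 0.655, and -0.22, called, with GC correction). It fell 1.60-fold at 12 h (log2 -0.68, SE 0.08; edgeR adjusted p = 4.03e-06) and 1.41-fold at 24 h (-0.49), from 219 to 237 CPM in untreated cells to 141 to 143 and 158 to 168. Fgr rose by 0.43, 0.64 and 0.35 log2 units, with edgeR adjusted p of 0.0178, 0.000741 and 0.0401. Its 4 h call was lost without untreated replicate 3 (0.33) or isotype replicate 1 (0.40) or 3 (0.35), and its 24 h call without untreated replicate 2 (0.38) or 3 (0.26) or isotype replicate 1 (0.39) or 3 (0.36). Both calls were also lost with the authors' factors (0.28 and 0.33) and with no filter on low counts (0.33 and 0.38). Ptpn22 rose at 24 h (0.47, SE 0.18; edgeR adjusted p = 0.0431), a call lost without untreated replicate 1 (0.41) or 3 (0.47) or isotype replicate 1 (0.49), 2 (0.49) or 3 (0.55), and with no filter on low counts (0.50). Csk and Ptpn1 were not called. Their differences were -0.39, 0.37 and 0.02 for Csk and -0.03, 0.67 and -0.39 for Ptpn1, whose 12 h value (edgeR adjusted p = 0.0503) was called with the replicate number as a block (0.65), with RLE factors (0.65), with DESeq2 (0.65) and with GC correction (0.53). At 4 h the direction of Ptpn1 was not stable: it was 0.28 after GC correction and 0.65 with the authors' factors, both called, and -0.46, also called, without both libraries out of title order. Without isotype 4 h replicate 3 the 4 h difference of Csk was -0.88 and called. At 24 h Csk was called higher with GC correction (0.27) and with the authors' factors (0.40), and at 12 h in the fit of only the groups compared (0.36).

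**Figure D4:**
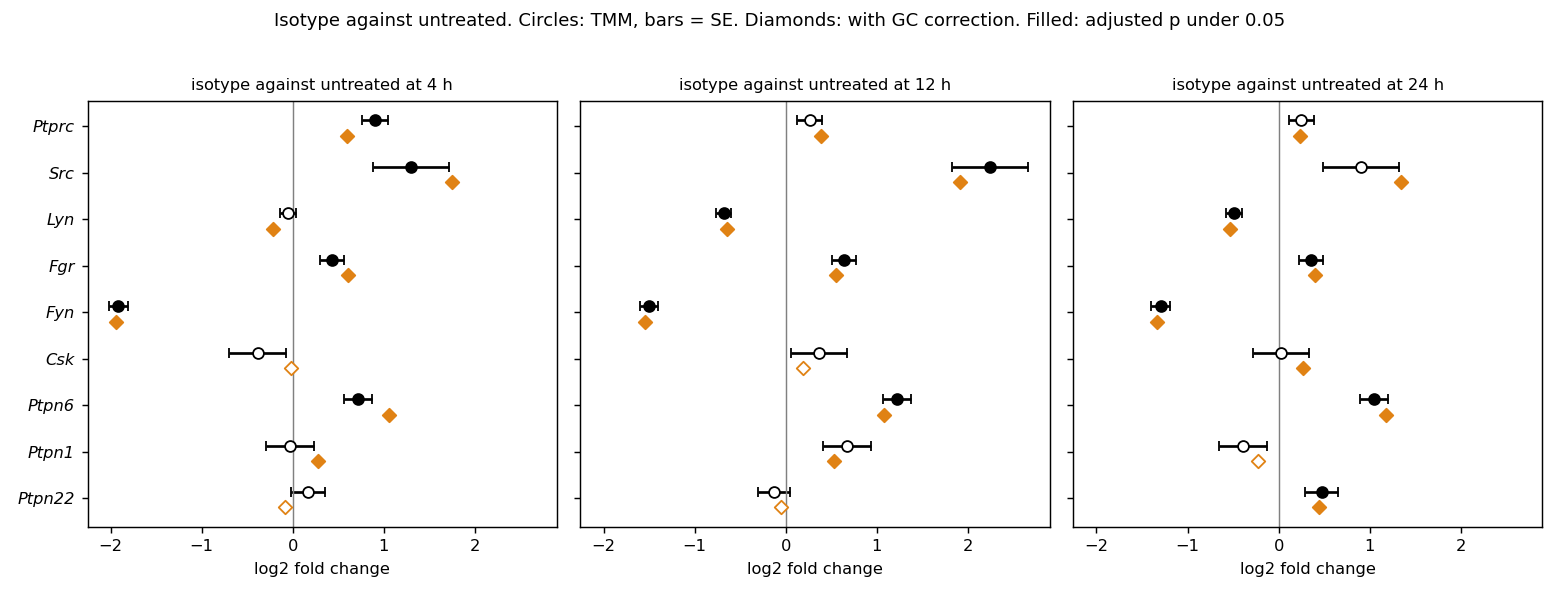
Log2 fold change of isotype against untreated cells for the 9 genes at 4, 12 and 24 h, positive where isotype was higher. Circles are the TMM fit with SE bars, diamonds the fit with GC correction, and filled symbols have an adjusted p under 0.05. Fyn lay furthest to the left at all 3 times (-1.91, -1.50 and -1.30). Ptpn6 was higher under isotype at all 3 times (0.72, 1.22 and 1.05). In the TMM fit Src lay furthest to the right at 4 h (1.30) and 12 h (2.25).

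Over the 21 libraries, the genes whose log2 CPM followed Ptprc most closely among 11110 genes were Xrn1, Stard7, Washc4, Caprin1 and Xrn2, with Pearson r from 0.973 to 0.979. Those that followed Src most closely were Ppt2, Atp6v1e1, Fscn1, Exoc3l4 and Bid, with r from 0.949 to 0.964. Transcript GC content was 40.8% to 48.3% in the first set and 49.1% to 59.0% in the second, and the points share libraries, depth and GC tilt, so r describes these libraries only. Among the 9 genes the highest r were Fgr with Ptpn6 (0.78) and Src with Ptpn6 (0.76), and the lowest Src with Ptpn22 (-0.77) and Fyn with Ptpn6 (-0.73).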

How the data were processed

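The values tested were those the authors deposited as raw expression, whole numbers for 23250 genes in 21 libraries that were treated as estimated counts, so rounding changed none of them. Per the submitters' processing notes, CASAVA 1.8.2, kallisto 0.44.0 and DESeq2 were used with builds named mm10 and GRCm38, and per the labels reads were 75 bp from single ends. The second table the authors deposited, normalized expression on a linear signal scale, gave the authors' factors (its ratio to the raw table for each gene and library), used as 1 alternative. The gene annotation the authors used is not given in the sources used here. Identifiers were matched without version to GENCODE M21 (GRCm38), which gave a symbol for 23187 genes, and transcript GC content for 13440 of 13468 genes tested.

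Groups came from the sample titles. Genes passing filterByExpr were fitted in edgeR 4.0.16 (limma 3.58.1, R 4.3.3) with TMM factors, 7 groups and no covariates, glmQLFit and glmQLFTest, with Benjamini-Hochberg adjustment over all genes tested. GC correction subtracted a lowess curve (span 0.3) of level against GC content from each library. Other alternatives were DESeq2 1.42.0, RLE factors, other filters, fits of only the groups compared, the replicate number as a block and leaving out libraries. The fit was run on simulated counts first, with a pass mark for recovered genes that was lowered after its first result just missed it, and with no change to the method. Library totals of 5532225 to 66729533 counts put the level of 3 counts at 0.542 to 0.045 CPM, which covers counting error only.

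The genes, lists and tests were chosen with earlier results of these data known, and support nothing independently. All 9 genes are named. From each other list the text names at most the 4 genes with the smallest edgeR p among those called in an FcMR comparison, plus Lck and Blk, and 1 gene that the rule also names is not reported here. The genes most like Ptprc and Src were the 5 with the highest Pearson r among genes whose mean log2 CPM reached 1. The Src to Csk ratio, motifs, lowess span and printed sequences were chosen after values had been seen.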

Additional observations from a re-analysis of the deposited data

Results flagged for a closer look

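The FcMR difference of Lyn changed over the 3 times by a joint test of the interaction (edgeR adjusted p = 0.00348), from 0.31 at 4 h through 0.19 at 12 h to -0.33 at 24 h on the log2 scale, with FcMR above isotype in every library pair at 4 h and below it in every pair at 24 h. The FcMR difference of Fyn changed over the times by the same test (edgeR adjusted p = 0.0345), from 0.46 at 4 h to -0.11 at 12 h and 0.04 at 24 h. The Fyn call was lost in 3 of the 18 fits without 1 library, whereas the Lyn call held in all 18. It was also lost with the authors' factors and with no filter on low counts.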

How the results depend on the processing

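Without any 1 library of the groups compared, the numbers of the 9 genes called ranged from 1 to 3 at 4 h, 0 to 0 at 12 h and 1 to 3 at 24 h for FcMR against isotype, from 3 to 5, 5 to 6 and 3 to 4 for isotype against untreated, and from 1 to 3 for the joint test over time. With all libraries the calls over all genes were 2390, 2169 and 2813 for FcMR at the 3 times and 1484 by the joint test. Without 1 library they ranged from 1589 (without FcMR 4 h replicate 2) to 3151 at 4 h. The range was 1570 to 1841 at 12 h and 2091 to 3135 at 24 h. By the joint test it was 973 (without FcMR 4 h replicate 2) to 2294 (without isotype 4 h replicate 3). For isotype against untreated the ranges were 3784 to 6251, 4577 to 5076 and 4876 to 5180 at 4, 12 and 24 h. Fits of only the groups compared called 868 genes and 0 of the 9 for FcMR at 4 h, and 2881 genes and 3 of the 9 for isotype at 4 h. They called 8 of the 9 at 12 h and 8 at 24 h against untreated, with 7191 and 7138 of all genes. GC correction called 3828, 3512 and 4182 genes for FcMR at 4, 12 and 24 h, 3105 by the joint test and 7377 for isotype at 24 h. Of the 9, it called 2 at 12 h, 5 at 24 h, 5 by the joint test and 8 for isotype at 24 h. The authors' factors called 2 of the 9 at 4 h and 1 at 12 h, with 1851 and 1778 of all genes. Without both libraries out of title order, 3898 genes were called at 4 h and 2616 by the joint test. At 12 h that fit called 2122 genes and 1 of the 9. With no filter on low counts the joint test called 925 genes and 1 of the 9, and isotype at 24 h called 5263 genes and 3 of the 9. Fits without some libraries hold fewer samples, and for the other fits the cause was not tested.

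The labels state no pairing of libraries by replicate number. Deviations of same-numbered libraries did not correlate above 0.1 in every pair of any comparison (mean r from -0.071 to 0.106). With 3 libraries per group and GC tilts that differ between them, this check cannot exclude pairing. With the replicate block alone, 2541, 2290 and 2911 genes were called for FcMR at 4, 12 and 24 h, and the 1 call among the 9 genes that changed was Ptpn1 in isotype 12 h (0.65, called). With replicate block and GC correction together, 4027, 3691, 4300 and 3313 genes were called for FcMR at 4, 12 and 24 h and the joint test. For isotype at 24 h this fit called 7481 of 13468 genes. Of the 9, it called 3 at 12 h, 5 at 24 h, 6 by the joint test and 9 for isotype at 24 h.

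Directions turned only for differences not called under the TMM fit. For FcMR at 4 h, Fgr was 0.032 with RLE factors and with DESeq2, 0.113 with the authors' factors, 0.081 with no filter and 0.046 without both libraries out of title order. Fyn at 24 h was -0.14 with the authors' factors. In isotype 4 h, Ptpn1 was 0.649 with the authors' factors, 0.278 with GC correction and 0.267 with the block added, Ptpn22 was -0.086 and -0.089 in those GC fits, and Lyn was 0.009 without the libraries out of title order. Ptpn1 in isotype 24 h was 0.177 with the authors' factors. The change over time was 0.072 for Src with GC correction and 0.076 with the block added. Without the libraries out of title order it was 0.094 for Ptprc, -0.075 for Ptpn1 and 0.087 for Ptpn22.

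Leaving out 1 library gave Fgr -0.095 to 0.075 and Ptpn1 -0.098 to 0.489 for FcMR at 4 h, Ptpn6 -0.088 to 0.103 and Ptpn1 -0.076 to 0.334 at 12 h, and Ptprc -0.038 to 0.204 and Fyn -0.064 to 0.105 at 24 h. It gave Lyn -0.195 to 0.008, Ptpn1 -0.46 to 0.127 and Ptpn22 -0.013 to 0.338 in isotype 4 h, and Csk -0.079 to 0.115 in isotype 24 h. For the change over time it gave Ptprc -0.222 to 0.093, Src -0.78 to 0.316, Ptpn1 -0.075 to 0.512 and Ptpn22 -0.266 to 0.088. The share of all calls that were higher was 48.6% with TMM, 62.7% with RLE factors and 67.2% with the authors' factors for FcMR at 4 h, and 56.6%, 42.9% and 40.1% by the joint test. The median difference of all genes for FcMR at 4 h was -0.073, -0.007 and -0.002 in these fits. Depth limits the genes with fewest counts, such as Cd3e with 0 to 4 and Blk with 1 to 147 counts in a library.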
